A study of Homo sapiens with 3 samples.

Results

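NRF2, the protein of NFE2L2, was examined together with 3 genes widely used as readouts of its activity, TXNRD1, SRXN1 and HMOX1, in MDA-MB-231 cells, an established cell line from a human triple-negative breast cancer. The genes were taken by name from the platform annotation, which gave 1 probe set to each of the 4, out of 14884 named genes in all. The cells were cultured for 72 h with Mt-CFX at 10 µM, with CFX at 10 µM, or with 1% DMSO as the control, and each of these 3 groups was 1 array of total RNA. Ciprofloxacin, an antibiotic of the fluoroquinolone class, is named in the series title, and for Mt-CFX the labels give no more than that code name. No DMSO content is labelled for the compound cultures, so an effect of the compound and one of the solvent content cannot be told apart in a difference from the control. With n = 1 in every group there is no replicate error, and no p-value or interval could be computed for any difference below.

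NRF2 is a transcription factor that is made continuously and, in unstressed cells, captured by KEAP1, which presents it to a CUL3 ubiquitin ligase for destruction. Oxidants and electrophiles modify cysteines of KEAP1, NRF2 then accumulates, pairs with a small MAF protein and binds antioxidant response elements near its target genes. NRF2 activity is therefore set largely at the level of the protein, which arrays do not measure, although NFE2L2 is itself among the genes described as NRF2 targets. TXNRD1 encodes the cytosolic thioredoxin reductase, a selenoprotein that passes electrons from NADPH to thioredoxin. SRXN1 encodes sulfiredoxin, which repairs peroxiredoxins that have been overoxidised by peroxide. HMOX1 encodes the inducible haem oxygenase, which splits haem into biliverdin, carbon monoxide and iron, and its promoter is also held down by the repressor BACH1.

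The DNA around the annotated starts of these genes is shown because antioxidant response elements are the sites through which NRF2 acts. RefSeq promoter windows (build GRCh38.p14), each running from 250 bases before a start to 50 after it, were available for 3 of the 4 genes, with 2 windows each for NFE2L2 and TXNRD1 and 1 for SRXN1. The core of the antioxidant response element, searched on both strands as TGACNNNGC, was found in both TXNRD1 windows and in none of the others. Of all 35116 windows of this length in the table, 13.3% held at least 1 match. In the windows below, matches are in capitals, letters run 5′ to 3′ along the gene's own strand, and the start is base 251. The first TXNRD1 window, chr12:104215529-104215828 on the plus strand, held TGACTTCGC at bases 152 to 160 and TGACGGAGC, on the opposite strand, at bases 243 to 251. The second TXNRD1 window, chr12:104286782-104287081 on the plus strand, belongs to a start further into the gene and held TGACAAAGC on the opposite strand at bases 149 to 157. This match was also the only one to the longer core TGACNNNGCA, which 3.18% of all windows contained. The SRXN1 window, chr20:653151-653450 on the minus strand, is printed beside them as a window without a match.
TXNRD1 first window: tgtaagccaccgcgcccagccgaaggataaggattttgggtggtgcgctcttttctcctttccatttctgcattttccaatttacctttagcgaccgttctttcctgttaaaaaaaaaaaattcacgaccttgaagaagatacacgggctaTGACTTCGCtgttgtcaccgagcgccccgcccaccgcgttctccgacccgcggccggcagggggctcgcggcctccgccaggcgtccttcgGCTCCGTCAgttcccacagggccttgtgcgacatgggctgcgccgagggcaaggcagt
TXNRD1 second window: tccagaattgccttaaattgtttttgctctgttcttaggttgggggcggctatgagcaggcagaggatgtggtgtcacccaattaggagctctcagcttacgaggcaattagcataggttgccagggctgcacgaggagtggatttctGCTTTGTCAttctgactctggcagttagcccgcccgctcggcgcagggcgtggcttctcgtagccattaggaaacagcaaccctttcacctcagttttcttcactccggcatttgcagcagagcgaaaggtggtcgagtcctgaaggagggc
SRXN1 window: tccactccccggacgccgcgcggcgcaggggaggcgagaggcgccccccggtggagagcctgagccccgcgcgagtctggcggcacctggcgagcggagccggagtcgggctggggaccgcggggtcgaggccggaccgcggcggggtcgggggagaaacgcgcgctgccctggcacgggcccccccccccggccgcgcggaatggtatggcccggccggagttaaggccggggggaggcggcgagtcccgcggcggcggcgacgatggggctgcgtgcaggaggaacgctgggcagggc

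The windows of SRXN1 and NFE2L2 were rich in G and C, at 80.0% for SRXN1 and 76.3% for the NFE2L2 window at chr2:177264082-177264381 on the minus strand, with the other NFE2L2 window just below that. Those of TXNRD1 held 58.0% and 53.7%, near the median of 58.7% over all windows. An AP-1 site, TGANTCA, and the core of the C/EBP-ATF element, TGATGNAA, through which ATF4 acts, were found in 0 of these 5 windows. Of all windows 7.71% and 3.62% held them, and with shares this small, 0 of 5 does not set these genes apart. Matches are to letters only, and no binding was measured.

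The arrays were summarised by the authors as log2 expression values, on which a difference of 1 is a 2-fold difference. Genes were compared when their highest array reached 3.89, the median of all probe sets, which 8868 protein-coding genes did, including all 4 examined here on every array. The array medians lay between 3.88 and 3.91, and the sorted values of the arrays were at most 0.245 log2 apart, so differences in total RNA, whether from fewer cells or from less RNA per cell, are not visible. Exactly the same value on all 3 arrays was listed for 45.3% of the genes compared. Of the genes widely reported as expressed in this line, the 7 with a probe set, among them VIM, EGFR, CD44 and AXL, were above 3.89 on every array. The receptor gene PGR and the keratin gene KRT5 were below it, ESR1 was at 3.81 with Mt-CFX, 3.92 with CFX and 3.81 in the control, and the luminal genes GATA3, FOXA1 and EPCAM were above it. Among markers of other cell types PECAM1, VWF and DCN were below 3.89, and CD68 was at 9.13 with Mt-CFX, 9.27 with CFX and 9.37 in the control.

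NFE2L2, TXNRD1 and SRXN1 were each highest with Mt-CFX, intermediate with CFX and lowest in the control, while HMOX1 did not differ between the listed values. Of these genes TXNRD1 was past 2-fold with Mt-CFX, against 0.304% of all genes compared that were higher by this size. At 1.5-fold NFE2L2 was counted as well, against 1.45% of all genes, and SRXN1 lay just short of it. With CFX, 0 of the 4 genes were past 1.5-fold, a size that 0.0451% of all genes passed on the higher side, and 0.0226% passed 2-fold. The plot of values by array shows the same order of the arrays in 3 panels and a flat line in the panel of HMOX1.

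**Figure D1:**
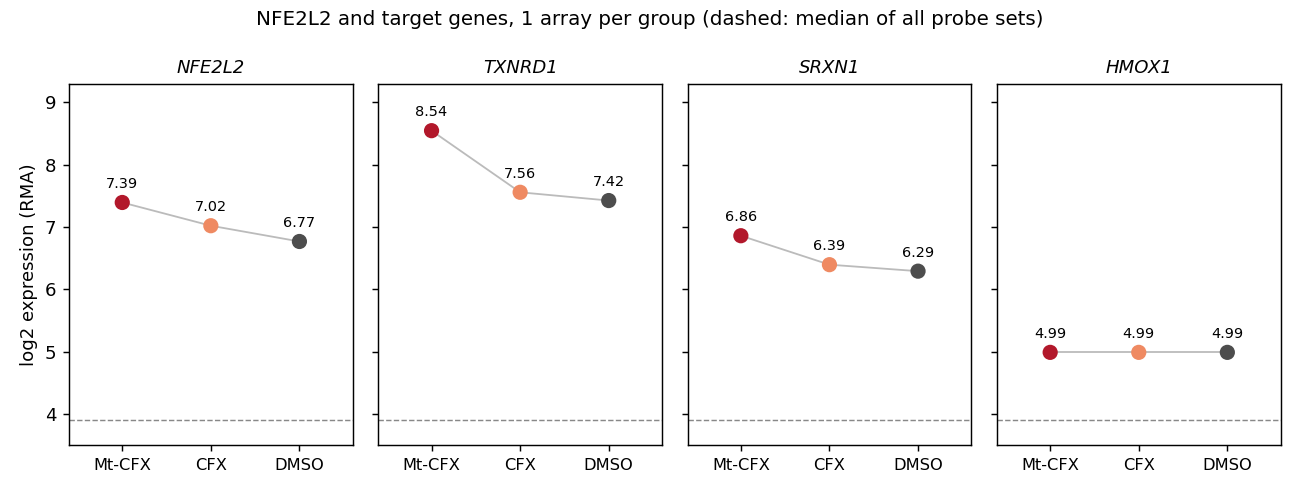
Log2 expression (vertical axis) of NFE2L2, TXNRD1, SRXN1 and HMOX1 on the Mt-CFX, CFX and DMSO control arrays, 1 point per array with its value printed and no error bar because n = 1. The dashed line is the median of all probe sets, 3.89. TXNRD1 has the widest step, at 8.54 with Mt-CFX against 7.56 with CFX and 7.42 in the control, and HMOX1 is at 4.99 on each array.

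NFE2L2 was at 7.39 with Mt-CFX, 7.02 with CFX and 6.77 in the control. Mt-CFX minus control was 0.63 log2, a 1.54-fold difference, and CFX minus control was 0.25 log2, a 1.19-fold difference. The regulator itself was thus higher on both compound arrays, and the CFX difference was 40.4% of the Mt-CFX difference. Ordered from the highest difference down, NFE2L2 was in place 115 of 8868 genes with Mt-CFX and in place 169 with CFX. Between the compounds it was higher with Mt-CFX by 0.37 log2, or 1.30-fold, in place 237.

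TXNRD1 was at 8.54 with Mt-CFX, 7.56 with CFX and 7.42 in the control. The difference of Mt-CFX from the control, 1.12 log2 or 2.18-fold, was in place 21 of the 8868 genes. With CFX the reductase gene was higher by 0.13 log2, or 1.10-fold, a difference that 7.16% of all genes equalled or exceeded. The CFX difference was 11.8% of that with Mt-CFX. Set directly against CFX, Mt-CFX gave a TXNRD1 value higher by 0.99 log2, in place 24, which at 1.98-fold was just under the 2-fold size that 0.259% of all genes passed on the higher side.

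SRXN1 was at 6.86 with Mt-CFX, 6.39 with CFX and 6.29 in the control. Mt-CFX minus control was 0.57 log2, or 1.48-fold, in place 138, and CFX minus control was 0.10 log2, or 1.07-fold, equalled or exceeded by 9.77% of genes. The sulfiredoxin gene thus had 18.3% of its Mt-CFX difference with CFX. Mt-CFX was above CFX by 0.46 log2, or 1.38-fold, in place 163.

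HMOX1 was at 4.99 with Mt-CFX, 4.99 with CFX and 4.99 in the control, equal to all 5 decimals deposited. It is 1 of 4021 genes compared with equal values on the 3 arrays, and its value was 1.09 log2 above the median of all probe sets. An equal value in a table where so many are equal sets no bound on how far HMOX1 transcripts differed between the cultures.

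CFX and Mt-CFX were compared as 1 pair at the same labelled dose and time. For NFE2L2, TXNRD1 and SRXN1 the Mt-CFX array was the higher one and for HMOX1 the arrays were equal, and with single arrays these differences have no interval. For Mt-CFX against CFX, 20.1% of all genes compared were higher, 25.2% lower and 54.7% equal. The central 95% of all genes lay between −0.44 and 0.47 log2 for Mt-CFX minus control, between −0.19 and 0.23 for CFX minus control, and between −0.41 and 0.39 for Mt-CFX minus CFX. NFE2L2, TXNRD1 and SRXN1 lay above the upper bound with Mt-CFX over control. Over CFX, TXNRD1 and SRXN1 lay above it and NFE2L2 did not. For CFX over control NFE2L2 lay above it and TXNRD1 and SRXN1 did not.

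**Figure D2:**
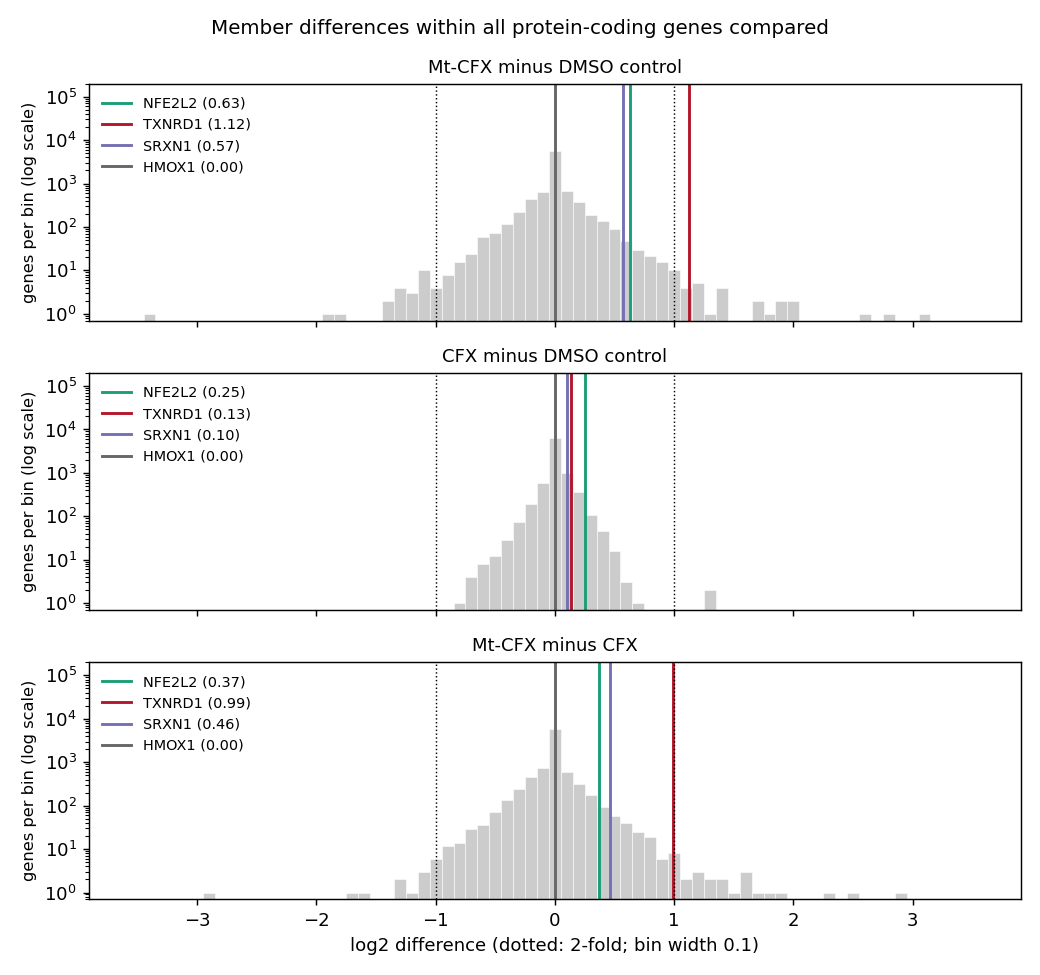
Number of genes (vertical axis, log scale) per 0.1 log2 bin of difference (horizontal axis) for Mt-CFX minus control, CFX minus control and Mt-CFX minus CFX, over 8868 protein-coding genes, with a coloured line for each of the 4 genes and dotted lines at 2-fold. TXNRD1 stands at 1.12, 0.13 and 0.99 in these panels, and HMOX1 at 0.00 in each.

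Genes that overlap or adjoin the 4 loci in the reference gene table were read as a local comparison. EID3, a gene for a p300-interacting inhibitor of differentiation, lies within the annotated span of TXNRD1 and was also higher with Mt-CFX, at 7.28 against 5.92 with CFX and 5.98 in the control. The difference from the control was 1.31 log2, or 2.48-fold, in place 15 of all genes compared, ahead of TXNRD1. With CFX the EID3 value was lower than in the control by a difference of −0.06 log2. How far the probe sets of TXNRD1 and EID3 read the same transcripts was not tested, since probe positions were not used here. EID3 was singled out after its values were seen. The nearest measured genes outside the span went the other way, with HCFC2 on one side at −0.17 and CHST11 on the other at −0.17 log2 for Mt-CFX minus control, and both had equal values with CFX and in the control.

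LOC100130691, a long non-coding RNA and the nearest measured gene on one side of NFE2L2, was at 5.88 with Mt-CFX, 5.51 with CFX and 5.35 in the control. These values follow the same order of arrays as NFE2L2, with differences from the control of 0.53 log2 for Mt-CFX and 0.16 for CFX. HNRNPA3, an RNA-binding protein gene on the other side, was at 4.62 with Mt-CFX, 4.62 with CFX and 4.38 in the control. Beside SRXN1, TCF15 differed from the control by 0.21 log2 with Mt-CFX and 0.21 with CFX, from a control value of 3.69, under the median of all probe sets, and ANGPT4 was equal on the 3 arrays. Beside HMOX1, TOM1 differed by 0.04 log2 with Mt-CFX, and the replication helicase gene MCM5 by −0.37.

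**Figure D3:**
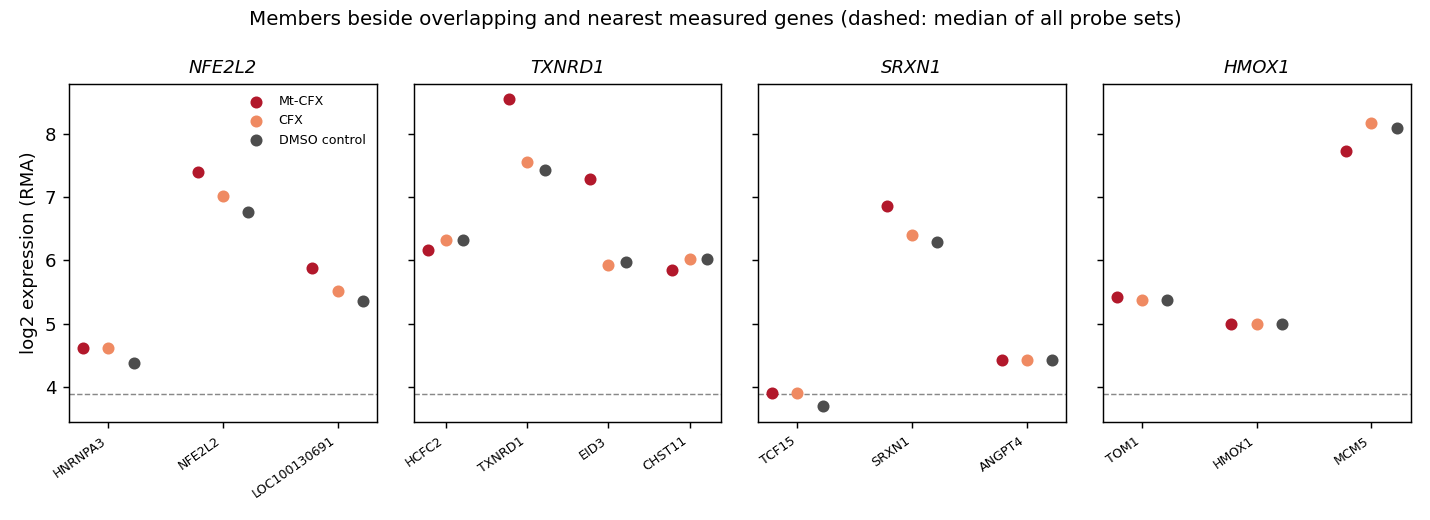
Log2 expression (vertical axis) of each of the 4 genes beside its overlapping gene and the nearest measured gene on each side (horizontal axis), with 1 point per array for Mt-CFX, CFX and DMSO control and the median of all probe sets dashed. EID3, within TXNRD1, is at 7.28 with Mt-CFX against 5.92 with CFX and 5.98 in the control, while HCFC2 and CHST11 are lower with Mt-CFX.

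Among the relatives of NRF2, differences went both ways with Mt-CFX. NFE2L1, the family member that induces proteasome genes, was at 8.85 with Mt-CFX, 8.45 with CFX and 8.59 in the control, and thus highest with Mt-CFX and lowest with CFX. NFE2L3, the third member of this kind, was lower, at 5.88 with Mt-CFX, 6.32 with CFX and 6.42 in the control, a difference of −0.54 log2 for Mt-CFX minus control. The small MAF partner gene MAFG, itself described as an NRF2 target, was at 5.86 with Mt-CFX, 5.32 with CFX and 5.44 in the control. MAFF was at 5.62 with Mt-CFX, 5.42 with CFX and 5.61 in the control. NFE2L2 was the only one of these 5 genes that was higher with CFX than in the control. NFE2, BACH1, BACH2 and MAFK were not analysed here.

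Transcripts of the KEAP1 complex, of other genes of NRF2 turnover and of proteins that bind KEAP1 were listed together, and 16 of 22 genes were compared. KEAP1 was at 7.24 with Mt-CFX, 7.33 with CFX and 7.24 in the control. CUL3 was at 7.27 with Mt-CFX, 7.27 with CFX and 7.26 in the control. In this list 7 genes were higher with Mt-CFX than in the control, 3 were lower and 6 were equal, where 23.9% of all genes compared were higher, 23.2% lower and 52.9% equal. The median was 0.00 log2, as it was for all genes. SQSTM1 and TRIM25, 2 of the 16, were past 1.5-fold, a size that 1.45% of all genes passed on the higher side. SQSTM1 encodes p62, which binds KEAP1 and draws it into autophagosomes, and was at 7.06 with Mt-CFX, 6.23 with CFX and 6.22 in the control. TRIM25, a ubiquitin ligase gene, was at 9.32 with Mt-CFX, 8.68 with CFX and 8.55 in the control. AMER1, which encodes another KEAP1-binding protein, differed by −0.15 log2, and FBXW11 and BTRC, whose products recognise phosphorylated NRF2, were higher by 0.14 and 0.13 with Mt-CFX and by 0.14 and 0.13 with CFX.

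In the thioredoxin system the other genes differed by far less than TXNRD1. All 11 listed genes were compared, and 1 of them, TXNRD1, was past 1.5-fold with Mt-CFX. This size was passed on the higher side by 1.45% of all genes. Thioredoxin itself, TXN, was at 10.51 with Mt-CFX, 10.39 with CFX and 10.38 in the control, a difference of 0.13 log2. The mitochondrial reductase gene TXNRD2 and the third reductase gene TXNRD3 were equal on the 3 arrays. TXN2, the mitochondrial thioredoxin gene, differed by −0.14, and NXN, the nucleoredoxin gene, by −0.07. TXNIP, whose product binds and inhibits thioredoxin, differed by −0.16 at the probe set used. Its other probe set, whose values were under 3.89, differed by −0.46. The list had 4 higher, 3 lower and 4 equal genes with Mt-CFX and a median of 0.00. Over all genes compared, 23.9% were higher, 23.2% lower and 52.9% equal.

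Peroxiredoxin genes had smaller differences than SRXN1 with Mt-CFX, and of either sign. PRDX1 was lower with Mt-CFX, at 9.82 against 10.04 with CFX and 10.01 in the control, a difference of −0.18 log2 from the control. PRDX2 differed by −0.07 with Mt-CFX, and PRDX3 and PRDX4 were equal on the Mt-CFX and control arrays. PRDX6, whose product works with glutathione, was higher by 0.19. The sestrin gene SESN2, a stress gene whose product has been tied to peroxiredoxin repair and to mTOR control, was the one listed gene past 2-fold here, higher by 1.66 with Mt-CFX and differing by −0.17 with CFX. With these 9 genes, 3 were higher, 3 lower and 3 equal with Mt-CFX, and the median was 0.00. Those shares over all genes compared were 23.9%, 23.2% and 52.9%, and 0.304% of all genes were past 2-fold higher.

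Among the haem and iron genes listed around HMOX1, the largest difference with Mt-CFX was that of BLVRB, a biliverdin reductase gene. It was at 7.57 with Mt-CFX, 7.10 with CFX and 7.10 in the control, a difference of 0.47 log2. The other biliverdin reductase gene, BLVRA, was equal on the 3 arrays. FECH, the last enzyme of haem synthesis, was at 5.74 with Mt-CFX, 5.45 with CFX and 5.45 in the control. HMOX2, the constitutive haem oxygenase gene, was at 5.52 with Mt-CFX, 5.52 with CFX and 5.68 in the control. NCOA4, whose product carries ferritin to autophagosomes, differed by −0.05. With Mt-CFX 2 of the 7 genes compared were higher, 2 lower and 3 equal, against 23.9%, 23.2% and 52.9% of all genes. The ferritin genes FTH1 and FTL were not analysed here.

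The counts for genes of glutathione use were near the shares over all genes. Of 22 genes of glutathione use, 13 were equal on the Mt-CFX and control arrays, 5 were higher and 4 lower with Mt-CFX. Those shares over all genes compared were 52.9%, 23.9% and 23.2%. Past 1.5-fold were 0 of the 22, where 1.45% of all genes were higher and 1.25% lower by this size. GSR, the glutathione reductase gene, was at 7.35 with Mt-CFX, 7.35 with CFX and 7.16 in the control. GLRX, a glutaredoxin gene, was higher by 0.19 with Mt-CFX, GLO1, the glyoxalase gene, by 0.12, and GSTK1 differed by −0.15. In glutathione synthesis, GSS was higher by 0.11, GGCT differed by −0.09 and OPLAH was equal, and these were the 3 of 9 listed genes compared.

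NADPH for both thioredoxin reductase and glutathione reductase comes in part from the pentose phosphate pathway, whose genes PGD, TKT, TALDO1 and PGLS were equal on the 3 arrays. NNT, the NADPH-producing transhydrogenase of the inner mitochondrial membrane, was lower with Mt-CFX, at 8.10 against 8.44 with CFX and 8.50 in the control. MTHFD1L and RPE were higher with Mt-CFX by 0.14 and 0.05. Among detoxification genes ALDH2, the mitochondrial aldehyde dehydrogenase gene, was at 7.42 with Mt-CFX, 6.90 with CFX and 6.72 in the control, past 1.5-fold with Mt-CFX. UGDH was higher by 0.17, and CBR1, CBR3 and PTGR1 were equal. The 3 compared genes of superoxide and hydrogen peroxide enzymes, CAT, CCS and DUOX1, were equal on the 3 arrays. So were 45.3% of all genes compared. The 7 drug efflux genes listed were not analysed here.

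In a list of 32 genes commonly taken as an NRF2 signature, 14 were compared. With Mt-CFX 6 were higher than in the control, 1 was lower and 7 were equal, against 23.9% higher, 23.2% lower and 52.9% equal over all genes compared. TXNRD1 and SQSTM1 were past 1.5-fold, 14.3% of the 14, where 1.45% of all genes were higher by this size. The median was 0.00. This list holds TXNRD1, SRXN1 and HMOX1 and was chosen with earlier results of these data known. OSGIN1, an oxidative stress-induced growth inhibitor gene, was equal on the 3 arrays. With CFX 7 were higher, 0 were lower and 7 were equal, 0 were past 1.5-fold, and the median was 0.0029, against 25.8% higher, 15.0% lower and 59.2% equal over all genes. Mt-CFX minus CFX gave 5 higher, 1 lower and 8 equal, with TXNRD1 and SQSTM1 past 1.5-fold, a size that 1.13% of all genes passed on the higher side. The signature genes NQO1, GCLC, GCLM, SLC7A11, ME1 and AKR1C1 have no named probe set and were not analysed here.

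Over all lists of the NRF2 pathway together, 133 of 239 genes were compared, and 11 of them, 8.27%, were past 1.5-fold higher with Mt-CFX and 0 lower, where 1.45% of all genes were higher and 1.25% lower by this size. The lists hold NFE2L2, TXNRD1, SRXN1 and HMOX1 and were chosen with earlier results of these data known. The share of 8.27% is thus not independent of those results. Past 2-fold were TXNRD1, SESN2, PSAT1 and GDF15. The others past 1.5-fold were NFE2L2, SQSTM1, TRIM25, ALDH2, PHGDH, ATF3 and ATF4. GDF15, PSAT1, PHGDH, SESN2, ATF3 and ATF4 are also known as genes of the ATF4 branch of the stress response. With CFX 0 of the 133 genes were past 1.5-fold in either direction, where 0.101% of all genes were lower by this size. Between the compounds 9 of 133 genes were past 1.5-fold higher with Mt-CFX and 0 were lower, where 1.13% of all genes were higher and 1.03% lower by this size. The plot of genes by role shows that most lists have their median on the zero line with a few genes to the right of it.

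**Figure D4:**
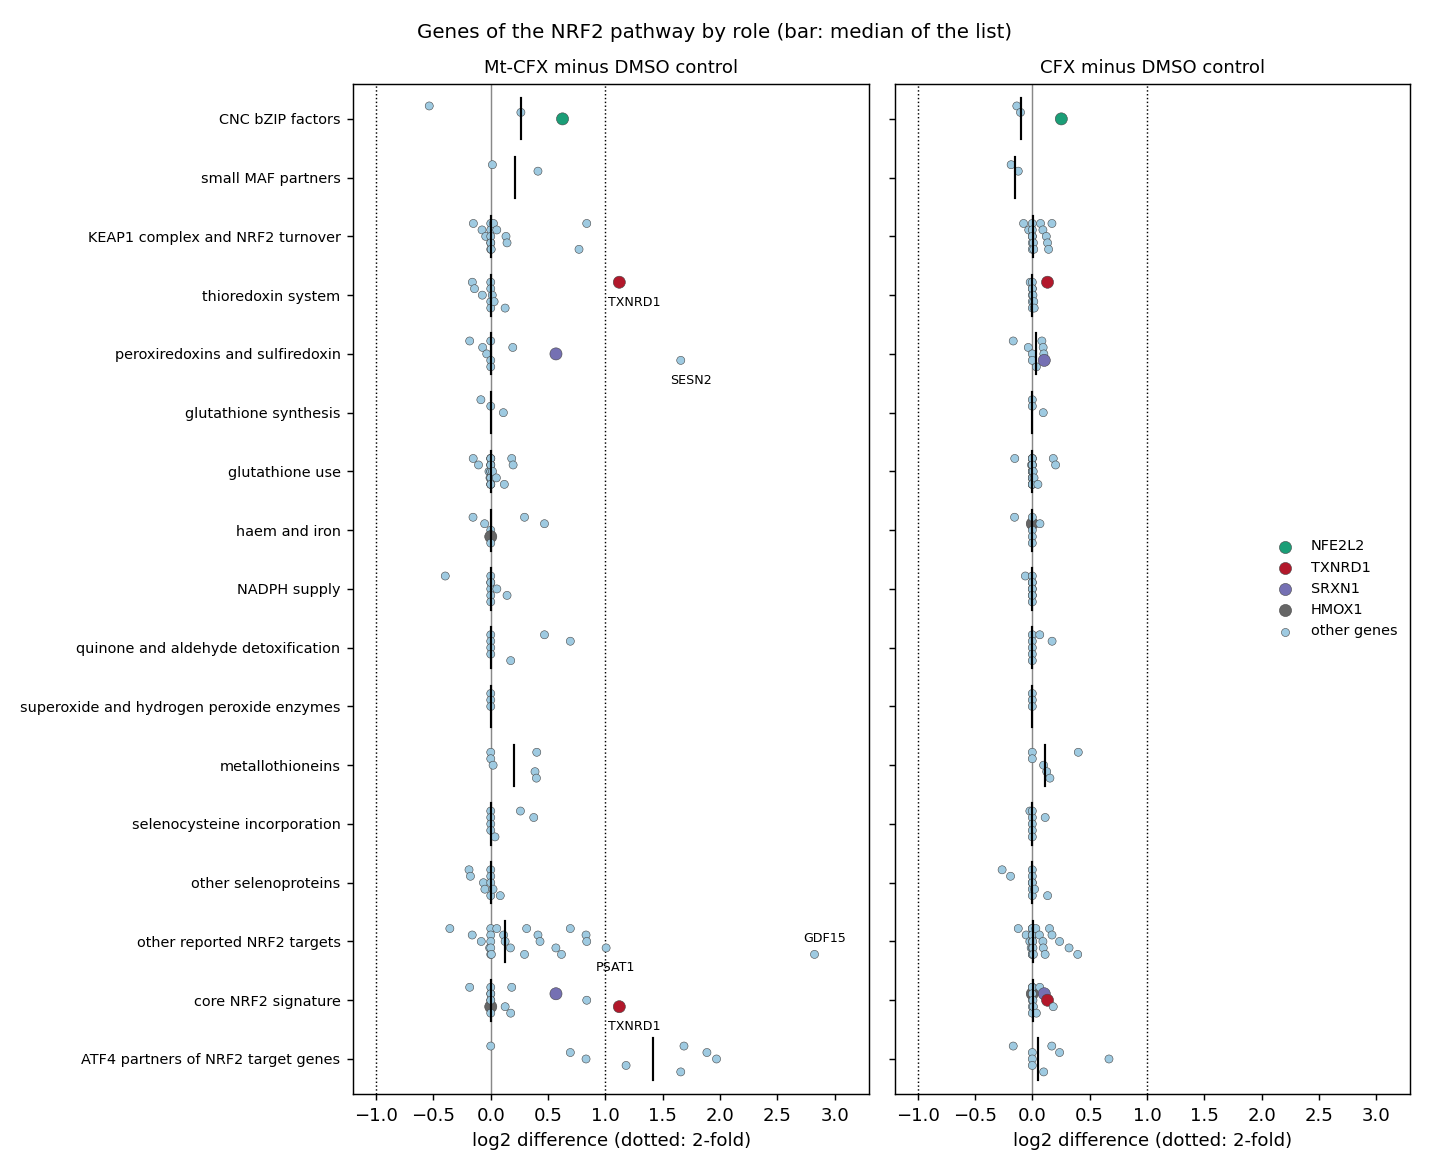
Log2 difference (horizontal axis) of every compared gene in lists of the NRF2 pathway and of the ATF4 branch (vertical axis, 1 row per list), for Mt-CFX minus control and CFX minus control. Large coloured points are NFE2L2, TXNRD1, SRXN1 and HMOX1, the black bar is the median of a list, and dotted lines mark 2-fold. The 8 ATF4 branch genes listed in the lowest row do not include GDF15, PSAT1 or PHGDH. They have a median of 1.42 with Mt-CFX and 0.050 with CFX. They include DDIT3, which reached the median of all probe sets only with Mt-CFX.

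The list of ATF4 branch genes had the highest median with Mt-CFX of the lists examined, 1.42 log2. This list was also chosen with earlier results of these data known, so its counts and median are not independent of them. The 8 compared were ATF4, DDIT3, TRIB3, ATF3, SESN2, CTH, CBS and ASNS. Of these, 7 were past 1.5-fold higher with Mt-CFX, where 1.45% of all genes were. They count DDIT3, compared only through its Mt-CFX array, at 4.75 against 3.06 with CFX and 3.06 in the control. With CFX the median was 0.050 and 1 of 8 was past 1.5-fold higher, CTH at 0.67 log2, where 0.0451% of all genes were. ATF4 itself was at 8.95 with Mt-CFX, 8.36 with CFX and 8.12 in the control. ATF4 is known to pair with NRF2 on some shared targets, and the part of either factor in the values of TXNRD1 and SRXN1 was not tested.

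The genes whose differences from the control were most like those of NFE2L2, TXNRD1 and SRXN1 were sought by Euclidean distance over both differences, that is over 3 arrays. Nearest to NFE2L2 were CHMP1B, a gene of membrane scission, at a distance of 0.031 log2, OGA, the gene of the enzyme that removes O-GlcNAc, at 0.050, and ZNF485 at 0.050. CHMP1B was at 8.40 with Mt-CFX, 7.99 with CFX and 7.77 in the control. Nearest to TXNRD1 were UPP1, the uridine phosphorylase gene, at a distance of 0.055, ASNS, the asparagine synthetase gene, at 0.070, and SPX at 0.11. ASNS was at 8.82 with Mt-CFX, 7.81 with CFX and 7.64 in the control, and the control value of SPX, 3.84, was under 3.89. Nearest to SRXN1 were GABARAPL1, an autophagosome gene, at a distance of 0.0085, ORMDL1 at 0.034 and RHBDD1 at 0.035. GABARAPL1 was at 5.64 with Mt-CFX, 5.17 with CFX and 5.07 in the control. HMOX1 has no nearest gene of this kind, since 4021 genes share its equal values.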

How the data were processed

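Total RNA of 3 MDA-MB-231 cultures was extracted with Trizol and made into biotin-labelled sense cDNA with GeneChip kits for whole transcripts, as the labels' protocols state. Per the submitters' processing notes, the authors used RMA and Affymetrix Expression Console, and what they deposited is 1 log2 expression value for each probe set and array. Versions, annotation release and genome build are not given in the sources used here. RMA summarises each probe set across the arrays of a run. The platform annotation named 16098 of 53617 probe sets, each with 1 symbol and a gene ID found in the reference gene table. Where a gene had several probe sets, that with the highest mean was used. Protein-coding genes were compared when the highest array reached the median of all probe sets. Differences of log2 values were counted at 2-fold and 1.5-fold, with no test, as each group was 1 array. Equality was taken at 5 decimals. The 4 genes and all gene lists were chosen with earlier results of these data known.

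Named genes were the 4 genes, up to 4 genes per list with the largest difference between Mt-CFX and control, list genes past 1.5-fold, preset pathway genes, the 3 nearest genes by pattern, and the nearest measured gene on each side of a locus. Counting, pattern search and motif search were tested on simulated data. Python 3.11.15 was used with numpy 2.4.6, pandas 2.3.3, statsmodels 0.14.6 and matplotlib 3.10.9. Precision is limited by the number of arrays.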

Additional observations from a re-analysis of the deposited data

How the results depend on the processing

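The differences of NFE2L2, TXNRD1, SRXN1 and HMOX1 moved by less than 0.1 log2, the size taken as unchanged in the absence of replicates, in all 48 recalculations with the mean of probe sets, with arrays centred on either of 2 medians, or with a lowess curve of span 0.3. The largest move was 0.024 log2, with arrays centred on the median of all probe sets. Each of these genes has 1 probe set, so the mean of probe sets could not move them. Centring shifts all genes of an array by the same amount, and the lowess curve moved these genes by at most 0.00089 log2. These recalculations give no measure of the error of single arrays. Counts of all genes for CFX minus control were small and depended on the floor and gene type. At 2-fold, higher genes numbered 2 as reported, 0 with the floor set on the mean over arrays, 0 with a floor at the 75th percentile and 6 with genes of every type. Lower genes numbered 0 as reported, 1 with no floor and 1 with genes of every type. At 1.5-fold, higher genes numbered 4 as reported, 10 with no floor, 2 with a floor on the mean, 2 with the 75th percentile and 20 with every type. Lower genes numbered 9 as reported, 16 with no floor, 2 with the 75th percentile and 19 with every type. With genes equal on all arrays left out, the median of the NRF2 signature was 0.18 log2 for Mt-CFX minus control and 0.12 for Mt-CFX minus CFX. The genes left hold TXNRD1 and SRXN1. These medians are not to be set against the all-gene median, which was taken with equal genes kept. Without TXNRD1, SRXN1 and HMOX1, 1 gene of the signature was past 1.5-fold for Mt-CFX minus control and 1 for Mt-CFX minus CFX. Of 1113 recalculations for the other lists 27 moved. Medians turned sign in 4 recalculations. Without NFE2L2 the median of the 2 remaining CNC bZIP factors was −0.14 log2 for Mt-CFX minus control, 0.26 as reported, and −0.018 for Mt-CFX minus CFX, 0.37 as reported. With the lowess curve the CFX medians of the NRF2 signature and of the other reported targets, 0.0029 and 0.0040 as reported, fell just below 0. No paired analysis was possible because each group was 1 array. Genes with equal values, 45.3% of those compared, limit what small differences can show.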

Other observations

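Metallothionein genes, which encode small cysteine-rich proteins that bind zinc and copper, were listed together with MTF1, the gene of their metal-sensing transcription factor. MT1X was at 9.32 with Mt-CFX, 9.07 with CFX and 8.92 in the control, and MT2A at 9.21 with Mt-CFX, 8.95 with CFX and 8.83 in the control. MT1F was at 4.76 with Mt-CFX, 4.76 with CFX and 4.35 in the control, while MT1E differed by 0.02 log2 with Mt-CFX, and MT3 and MTF1 were equal. Of the 6 genes compared, MTF1 among them, 4 were higher with each compound than in the control and 0 were lower. Over all genes compared, 23.9% were higher with Mt-CFX and 25.8% with CFX. Past 1.5-fold were 0 of the 6, where 1.45% of all genes were higher by this size with Mt-CFX and 0.0451% with CFX. Another 4 genes of the list were under the median of all probe sets and not compared. With Mt-CFX, MT1B and MT1G differed by −0.55 and −0.36 log2, and MT1H and MT1M by 0.63 and 0.175. The metallothionein genes, unlike MTF1, are similar copies of one another, and how far their probe sets read each other's transcripts was not tested.

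TXNRD1 protein needs selenocysteine, so the genes that insert this amino acid were listed. SEPHS2, which makes the selenium donor and is itself a selenoprotein gene, was at 6.83 with Mt-CFX, 6.57 with CFX and 6.45 in the control. SEPSECS, the enzyme that completes selenocysteine on its tRNA, was at 6.34 with Mt-CFX, 6.06 with CFX and 6.09 in the control. SECISBP2 was higher by 0.04 log2 with Mt-CFX, and the other 4 genes compared were equal. With Mt-CFX 2 of 10 other selenoprotein genes were higher, 4 lower and 4 equal, against 23.9%, 23.2% and 52.9% of all genes. SELENOK was at −0.19, SELENOI at −0.18, SELENOM at 0.08 and SELENOT at −0.06.

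Other autophagy genes among reported NRF2 targets had smaller differences than SQSTM1. GABARAPL1 was higher by 0.57 log2 with Mt-CFX, against 0.84 for SQSTM1. The adaptor gene CALCOCO2 was at 6.79 with Mt-CFX, 6.42 with CFX and 6.36 in the control. ULK1 and ATG5 differed by 0.05 and 0.11 log2 with Mt-CFX. PPARG, also in that list, was lower, at 6.33 with Mt-CFX, 6.66 with CFX and 6.68 in the control. With Mt-CFX 16 of the 25 genes of this list were higher, 4 lower and 5 equal. The shares over all genes compared were 23.9% higher, 23.2% lower and 52.9% equal. The list had a median of 0.13 log2 where that of all genes was 0.00. It holds GDF15, PSAT1, PHGDH, ATF3 and ATF4, also genes of the ATF4 branch, which were past 1.5-fold and raise its counts and median. The list was chosen with earlier results of these data known, so its counts and median are not independent of those results.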
